A study of Homo sapiens with 24 samples.

Results

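Trimethylation of histone H3 at lysine 4 (H3K4me3) was read at the promoters of long noncoding RNAs (lncRNAs) in EndoC-βH3 cells. A region of the H3K4me3 table was taken as a lncRNA promoter region when it lay on an autosome, overlapped 1 kb on either side of a transcript start of a GENCODE lncRNA gene, and did not overlap 2 kb on either side of any protein-coding start. Of 97545 regions, 3075 met this rule, which is 3.15% of all regions and 3.22% of the 95464 autosomal ones. They were compared with 22431 autosomal regions within 2 kb of a protein-coding start and with the 69958 remaining autosomal regions.

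EndoC-βH3 is a human beta cell line derived from fetal pancreas, immortalized with hTERT and SV40 large T antigen, and able to lose both transgenes. The non-senescent group held 4 samples of untreated cells of the genotype WT, which still carried the immortalizing transgenes. The senescent group held 4 samples of the same line and genotype after 3 weeks of 4-hydroxytamoxifen, which activates a CreER recombinase that excises the transgenes. The dose is 1 mM in the labels, while the methods of the study give the same figure in micromolar units. The labels do not say whether the samples came from separate cultures. Each sample held 500000 cells and was profiled by multiplexed, indexed T7 ChIP-seq (MINT-ChIP), in which barcoded chromatin is pooled before the antibody is added, so that all samples share a precipitation. The loss of the transgenes and the senescent state cannot be told apart in this model.

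The value given here for each region is the mean normalized count, the authors' mean of read counts scaled for library depth, which is taken over the 8 H3K4me3 samples of both states. No value per sample was used, so the means carry no error and differences between senescent and non-senescent cells are not analysed here. The depth of each library is unknown. The mean normalized counts summed to 1470677 over all regions. The labelled cell type was checked at the promoters of marker genes. Of 13 beta cell markers, 12 had a region, at 6.94 to 664.6 mean normalized counts with a median of 259.8, and MAFA had none. The 3 of 4 acinar markers with a region lay at 1.12 to 4.17, the 3 mesenchymal markers at 1.55 to 4.37, and the 1 of 3 blood markers with a region, LYZ, at 1.74. Of the 3 ductal markers, KRT19 stood at 24.1, SOX9 at 17.0 and CFTR at 3.54, and of the alpha cell markers GCG stood at 5.30 and IRX2 at 61.8.

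LncRNAs are transcripts of RNA polymerase II that are not translated into a known protein, and many are capped, spliced and polyadenylated like mRNAs. H3K4me3 is deposited by SET1 and MLL complexes on nucleosomes around active start sites, and CpG-rich promoters recruit these complexes through CXXC domains. Some lncRNAs act as RNA, such as MALAT1 in nuclear speckles and NORAD, which binds PUMILIO proteins in the cytoplasm, while others are host transcripts whose introns or exons are processed into snoRNAs or microRNAs.

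To show what such promoters look like in sequence, 7 RefSeq promoters that lie at a lncRNA promoter region are given, from 250 bases before to 50 bases after the start, on the strand of the gene (GRCh38.p14). They were picked to cover the region of highest level (MALAT1), a cytoplasmic lncRNA (NORAD), a snoRNA host (SNHG8), an imprinted gene (MEG3) and starts linked to endocrine or neural cells (BETALINC1, MIR7-3HG, MIR137HG). Capitals mark 4 motifs, each searched on both strands: the TATA box core TATAAA, the CCAAT box, the GC box core GGGCGG and the CRE core TGACGT.
MALAT1, chr11:65497488-65497787, plus strand: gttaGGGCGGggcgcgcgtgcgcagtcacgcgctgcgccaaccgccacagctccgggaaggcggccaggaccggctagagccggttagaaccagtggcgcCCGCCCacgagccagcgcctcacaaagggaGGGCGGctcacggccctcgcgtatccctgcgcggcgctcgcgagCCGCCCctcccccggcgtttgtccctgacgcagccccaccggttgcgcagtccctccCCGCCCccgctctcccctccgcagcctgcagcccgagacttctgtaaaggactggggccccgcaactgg
NORAD, chr20:36050911-36051210, minus strand: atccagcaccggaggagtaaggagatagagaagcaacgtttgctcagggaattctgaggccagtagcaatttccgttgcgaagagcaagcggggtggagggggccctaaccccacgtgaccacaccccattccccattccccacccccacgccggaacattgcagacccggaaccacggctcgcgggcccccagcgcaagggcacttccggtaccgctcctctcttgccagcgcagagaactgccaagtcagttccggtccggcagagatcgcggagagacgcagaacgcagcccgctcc
SNHG8, chr4:118278512-118278811, plus strand: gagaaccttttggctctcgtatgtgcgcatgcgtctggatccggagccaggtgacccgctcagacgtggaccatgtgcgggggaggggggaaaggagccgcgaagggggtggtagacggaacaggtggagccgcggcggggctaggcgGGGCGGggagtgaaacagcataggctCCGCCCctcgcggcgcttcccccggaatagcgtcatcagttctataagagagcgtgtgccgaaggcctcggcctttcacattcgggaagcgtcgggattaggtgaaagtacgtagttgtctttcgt
MEG3, chr14:100825858-100826157, plus strand: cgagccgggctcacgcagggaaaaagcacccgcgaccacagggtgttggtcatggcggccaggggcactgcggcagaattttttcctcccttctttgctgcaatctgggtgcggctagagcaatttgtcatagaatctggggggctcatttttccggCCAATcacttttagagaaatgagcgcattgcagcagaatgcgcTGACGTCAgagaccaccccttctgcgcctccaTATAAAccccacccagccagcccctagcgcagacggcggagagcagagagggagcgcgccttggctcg
BETALINC1, chr20:21529872-21530171, plus strand: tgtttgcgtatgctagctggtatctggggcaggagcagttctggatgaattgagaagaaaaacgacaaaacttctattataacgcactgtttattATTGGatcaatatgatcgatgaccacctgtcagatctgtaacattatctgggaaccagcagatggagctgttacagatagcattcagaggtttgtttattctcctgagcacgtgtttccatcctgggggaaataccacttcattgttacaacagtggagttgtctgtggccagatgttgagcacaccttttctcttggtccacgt
MIR7-3HG, chr19:4768855-4769154, plus strand: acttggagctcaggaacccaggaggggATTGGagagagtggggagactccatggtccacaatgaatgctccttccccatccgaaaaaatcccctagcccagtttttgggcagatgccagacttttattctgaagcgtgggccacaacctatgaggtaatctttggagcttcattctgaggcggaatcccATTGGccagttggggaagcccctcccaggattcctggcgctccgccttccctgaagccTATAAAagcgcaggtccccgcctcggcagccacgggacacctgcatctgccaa
MIR137HG, chr1:98049644-98049943, minus strand: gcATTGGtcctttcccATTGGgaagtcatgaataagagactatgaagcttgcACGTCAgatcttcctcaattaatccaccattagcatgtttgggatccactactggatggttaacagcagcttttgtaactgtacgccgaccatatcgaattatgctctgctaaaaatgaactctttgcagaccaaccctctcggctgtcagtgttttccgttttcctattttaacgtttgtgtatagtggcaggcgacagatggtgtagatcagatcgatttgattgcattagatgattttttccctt

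The 300 bases of MALAT1 held a GC content of 73.7%, 37 CpG dinucleotides and 5 copies of GGGCGG. NORAD, at 63.0% GC with 23 CpGs, held none of the 4 motifs, and SNHG8, at 62.3% with 29 CpGs, held 2 copies of GGGCGG. The MEG3 promoter held a CCAAT box, a CRE core read on both strands of 1 palindrome, and a TATA box core. Their first bases lay at −93, −50 and −18 from the start. BETALINC1 and MIR137HG had a lower GC content, 43.3% with 6 CpGs and 42.0% with 9 CpGs, and neither held a GC box or a TATA box core. MIR7-3HG held TATAAA at −3, with 56.3% GC and 9 CpGs. A match describes the letters and is not evidence that a factor binds there.

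Across lncRNAs, 541 of the 1114 named genes with a lncRNA promoter region had a RefSeq promoter at such a region, in 592 promoters. GGGCGG was found in 39.0% of these, in 44.7% of the 398 promoters at regions of 10 or more mean normalized counts, in 56.3% of 22199 protein-coding promoters and in 45.0% of all 35116 promoters. TATAAA was found in 10.1% of the lncRNA promoters, 9.47% of the protein-coding ones and 11.5% of all. CCAAT was found in 32.9%, 34.7% and 34.6% of the same groups. TGACGT was found in 8.78%, 8.94% and 7.98%, and in 11.3% of the lncRNA promoters at 10 or more.

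Many lncRNA starts could not be separated from a protein-coding promoter. Within 1 kb of a lncRNA start lay 7041 autosomal regions, and 3966 of them (56.3%) were left out because they also lay within 2 kb of a protein-coding start. The median of those left out was 43.1 mean normalized counts and 18.0 per kb of region width. Of 18390 autosomal lncRNA genes, 2844 (15.5%) had at least 1 lncRNA promoter region, 1114 with a gene symbol and 1730 known by an Ensembl identifier alone. Most of these genes, 2401, had a single region and 443 had several, and 2765 of the regions belonged to 1 gene, 281 to 2 and 29 to 3 or more.

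LncRNA promoter regions carried less H3K4me3 than protein-coding promoter regions and more than the other regions. Their mean normalized counts ran from 0.465 to 637.9 with a median of 9.44 and quartiles of 3.49 and 26.1. The median was 19.5 at protein-coding promoter regions and 3.41 at the other autosomal regions. Per kb of region width the medians were 8.86, 12.6 and 5.47. A level of 10 or more was reached by 1494 lncRNA promoter regions (48.6%, 95% Wilson interval 46.8 to 50.4), by 62.5% (61.9 to 63.1) of the protein-coding promoter regions and by 18.4% (18.1 to 18.7) of the others. The intervals do not overlap, but they cover counting error only and neighbouring regions are not independent. LncRNA promoter regions held 4.47% of the summed signal, against 59.5% for protein-coding promoter regions.

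**Figure D1:**
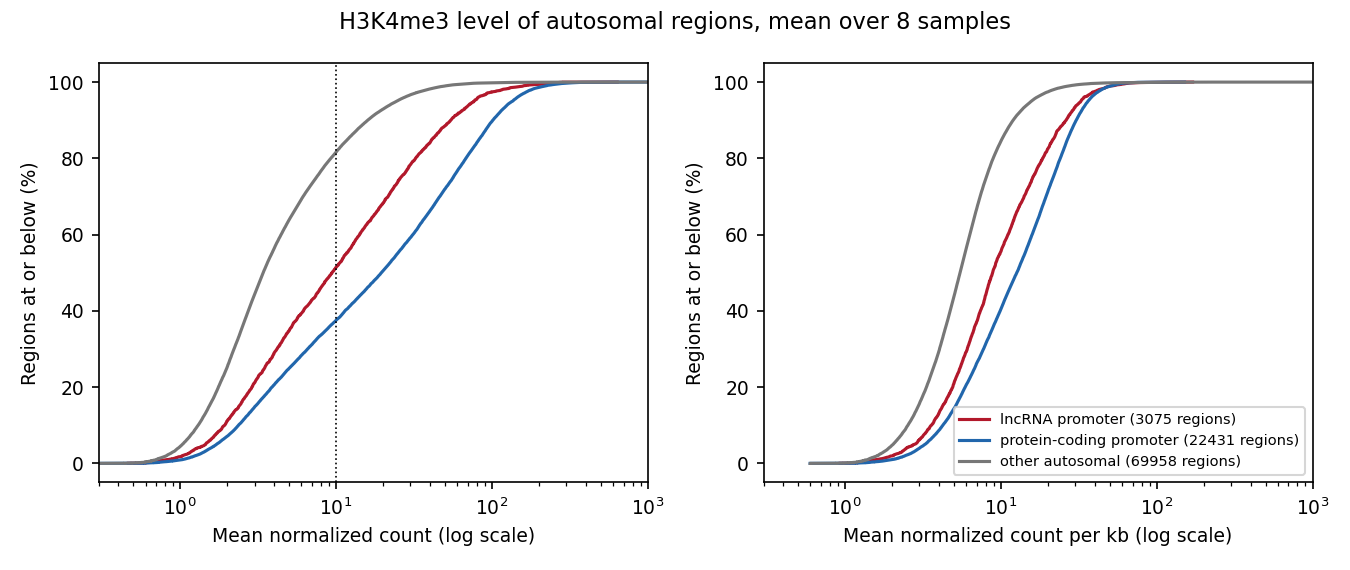
Cumulative share of regions (vertical axes, percent) at or below a given mean normalized count (left, with 10 dotted) or mean normalized count per kb of region width (right; horizontal axes, log scale), 1 line for each class of region. On the right, the line of the 3075 lncRNA promoter regions, with a median of 8.86, runs between those of the other autosomal regions (5.47) and the protein-coding promoter regions (12.6).

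The level followed the width of a region. LncRNA promoter regions had a median width of 958 bp, against 1438 bp at protein-coding promoters and 593 bp elsewhere, and 716 of them (23.3%) were exactly 500 bp wide. At these narrowest regions the median was 2.16 mean normalized counts and 4.32 per kb, and in the 91 regions over 4000 bp it was 100.3 and 19.7 per kb. Over the 3075 regions, Spearman's rho was 0.890 between width and count and 0.652 between width and count per kb. These points share the same libraries, and a width and a count come from the same reads, so the coefficients are descriptions. Among regions over 2000 and up to 4000 bp, lncRNA promoters had a median of 16.4 per kb, protein-coding promoters 20.2 and other regions 10.1. In narrower regions the lncRNA and protein-coding medians were close, at 4.32 and 4.45 per kb up to 500 bp, 7.79 and 8.22 from there to 1000 bp, and 12.2 and 13.3 from there to 2000 bp.

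**Figure D2:**
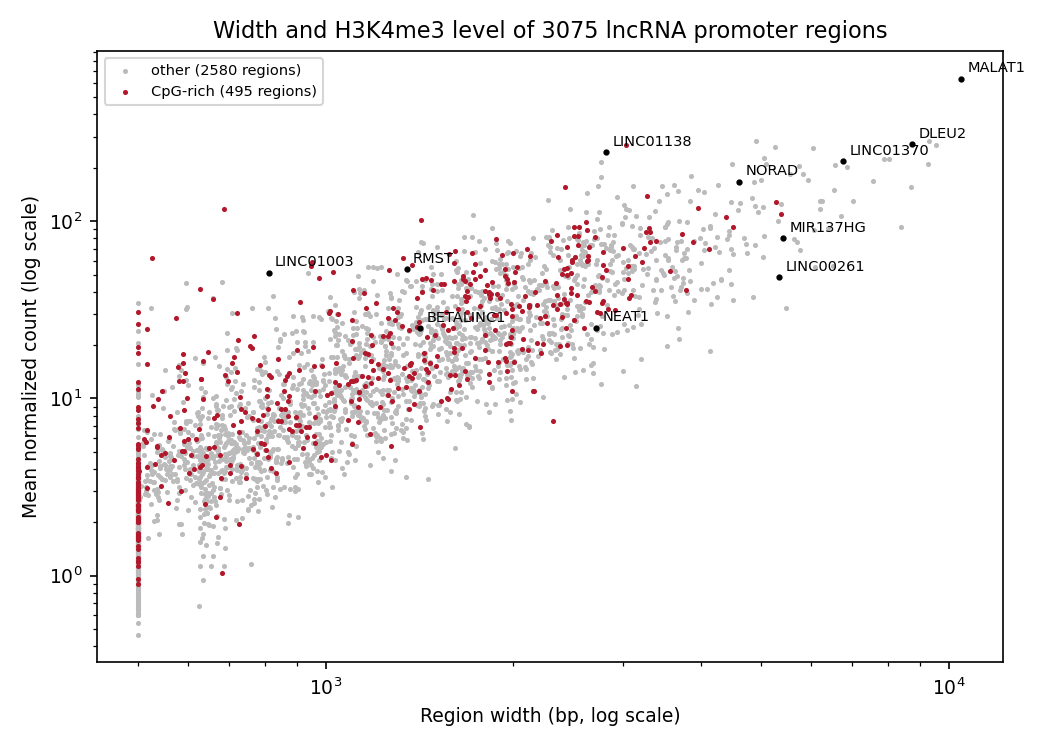
Width of each lncRNA promoter region (horizontal axis, bp, log scale) against its mean normalized count (vertical axis, log scale), with 1 point for each of 3075 regions (red, CpG-rich; grey, not CpG-rich) and some named in black. Counts rise with width (Spearman's rho 0.890), and the region of MALAT1, at 10480 bp and 637.9, stands at the upper right.

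LncRNA promoter regions were also less rich in CpG over their whole width. These values are not those of the bases at a start, which a wide region can dilute. The region of MALAT1 was 42.2% GC, while its 300 promoter bases were 73.7%. The median GC content of lncRNA promoter regions was 46.8%, against 50.0% at protein-coding promoter regions and 39.7% elsewhere. Their median ratio of observed to expected CpG was 0.342, against 0.517 and 0.184. A GC content of at least 50% together with a ratio of at least 0.6 was found in 495 (16.1%, Wilson interval 14.8 to 17.4), against 25.9% of protein-coding promoter regions and 1.53% of the others. The CpG-rich lncRNA promoter regions had a median of 12.4 per kb and 65.3% of them reached 10 mean normalized counts, while 45.4% of the remaining 2580 did. Over the 3075 regions, rho with the count per kb was 0.468 for the CpG ratio and 0.258 for GC content. At protein-coding promoter regions, these were 0.439 and 0.0717.

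Sequence found in several places of the genome was more frequent among lncRNA promoter regions. A region was taken as multi-copy when the median number of genomic occurrences of its sampled 32-base stretches was over 2. This was the case for 121 lncRNA promoter regions (3.93%, Wilson interval 3.30 to 4.68), 0.428% of protein-coding promoter regions and 2.27% of the others. Their median was 16.8 mean normalized counts, and that of the 2954 lncRNA promoter regions at or below this limit was 9.06. Short reads from such copies can be placed at any of them, so these levels are uncertain, and the part of mapping in them was not tested.

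In position, 2369 regions (77.0%) overlapped no protein-coding gene body. Any overlap of the region counted, whether or not the lncRNA starts inside the gene. Relative to the nearest lncRNA start, 469 overlapped genes on the opposite strand only and 217 genes on the same strand only. Another 20 overlapped genes on both strands. The median per kb was 9.44 outside genes, 7.82 on the opposite strand and 7.15 on the same strand, and 51.5%, 40.7% and 34.1% reached 10 mean normalized counts. The nearest protein-coding start was a median of 38.1 kb away and at most 2654 kb. The 306 regions between 2 and 5 kb from it had a median of 7.53 per kb, the 772 at 5 to 20 kb had 9.26, the 1163 at 20 to 100 kb had 9.63 and the 834 beyond 100 kb had 8.27. These medians lay within a narrow range, and the lowest was at the shortest distances. Chromosome 19 had the most lncRNA promoter regions for its length, at 21.0 per 10 Mb with a median of 5.09 mean normalized counts, and chromosome 4 the fewest, at 5.52 per 10 Mb.

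A lncRNA start lay inside 1797 of the regions (58.4%). These had a median of 11.9 per kb, while the 1278 regions that came within 1 kb of a start without covering it had 6.26. The groups were not matched for width, which the count per kb follows (Spearman's rho 0.652), and the part of width was not tested. Of the 1193 regions that covered a start and reached 10 mean normalized counts, 708 (59.3%) were centred downstream of it. The median offset of all 1193 was 66 bp downstream. Where a region held several starts, the one nearest its centre was used, and this choice favours small offsets.

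**Figure D3:**
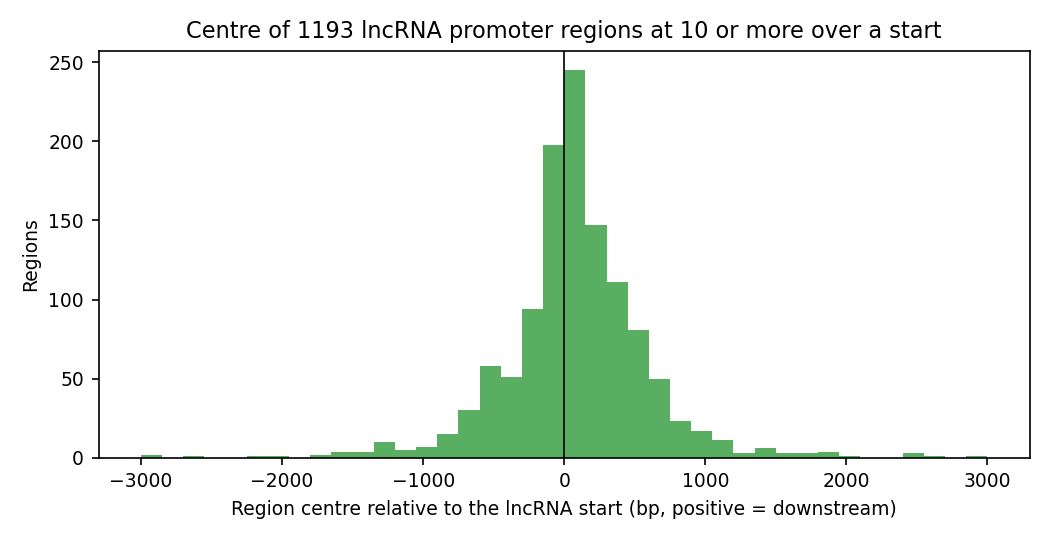
Distance of the region centre from the closest lncRNA start inside the region (horizontal axis, bp, positive downstream, values beyond the axis ends placed at the ends) for 1193 regions at 10 or more mean normalized counts; bars count regions. The distribution peaks at the start, which the choice of the start closest to the centre favours, and 708 regions lie on its downstream side.

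The highest level belonged to MALAT1, which is retained in nuclear speckles, and its antisense transcript TALAM1. Their shared region at chr11:65496127-65506607 (hg38) was 10480 bp wide, had 637.9 mean normalized counts and 60.9 per kb, and covered 85.9% of the MALAT1 gene. The next among named lncRNAs was ROCK1P1, a partial pseudogene of the kinase gene ROCK1, at chr18:106959-111860 with 285.1 mean normalized counts and 58.2 per kb, but its sequence occurs in about 4.5 copies. DLEU1 and DLEU2, which run in opposite directions from a region in the chromosome 13 interval deleted in leukaemia, shared chr13:50075515-50084250, with 271.0 mean normalized counts and 31.02 per kb over 8735 bp. DLEU1 and DLEU2 are thus 1 region with both starts, and their levels cannot be separated.

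Several intergenic lncRNAs far from any protein-coding start also had wide regions. LINC01370 at chr20:40003844-40010619 had 218.3 mean normalized counts and 32.2 per kb with 35.3% GC, and its region covered 90.1% of the gene. LINC01902 at chr18:39838855-39843936 had 210.7 mean normalized counts and 41.5 per kb, 2111 kb from a protein-coding start. LINC02405 at chr12:127059616-127067646 had 224.5 and 28.0 per kb, 1200 kb from one. LINC02106 at chr5:50965987-50971730 had 206.0 and 35.9 per kb and lay 298.1 kb from PARP8. By contrast LINC01586 at chr15:88602920-88612472, with 268.5 mean normalized counts and 28.1 per kb over 9552 bp, lay 8.87 kb from the start of AEN, an exonuclease gene induced by p53.

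The other named lncRNAs among the 15 of highest level were LINC01410 (259.4 mean normalized counts, 42.8 per kb, about 4 copies), LINC01138 (245.0 and 87.0 per kb), LINC00511 (225.7 and 28.7 per kb) and the pair LINC00667 and LINC00526, which share a region (208.0 and 31.6 per kb). Per kb, LINC01138 at chr1:148333230-148336047 stood first among named lncRNAs, and LINC01003 (63.4), LINC01990 (62.7) and MALAT1 (60.9) were also among the 5 highest. The widest regions were those of TALAM1 with MALAT1, LINC01586, DLEU1 with DLEU2, LINC00958 (8690 bp, 156.6 mean normalized counts, 18.0 per kb) and LINC02405 (8030 bp). The highest count per kb of any lncRNA promoter region, 170.0, was at ENSG00000290832, whose sequence occurs in about 3 copies.

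The limit of 10 mean normalized counts, used for statements on single genes, falls inside a continuous range. Just above it were UBE2Q2P13 (10.03, about 2 copies), LINC02681 (10.06) and LINC02259 (10.11, about 2 copies). Just below it were LINC01505 (9.95), RNF157-AS1 (9.91) and LRRC2-AS1 (9.89). At or above it were 1605 genes, 678 of them named, in 627 distinct regions. In 160 of the 1605 genes (9.97%) the region covered 90% or more of the gene, and their median gene length was 863.5 bp, against 14004 bp for all 1605.

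Some lncRNAs had many lncRNA promoter regions. SNHG14, the host of the SNORD115 and SNORD116 snoRNA clusters on chromosome 15, had 36 regions with 1.75 to 25.5 mean normalized counts, of which 3 reached 10. LINC00511 had 19 regions with 1.07 to 225.7, of which 9 reached 10. FAM182B had 5 regions with 11.0 to 51.1, all at 10 or more, but the strongest is multi-copy (about 3 copies) and its level uncertain, and LINC02028 had 7 regions, all below 10. The regions of SNHG14 and LINC00511 were thus unequal in level.

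Genes were then grouped by the form of their symbol, each gene with its strongest region. The median over all 2844 genes was 13.0 mean normalized counts and 10.5 per kb. The 17 snoRNA hosts (SNHG symbols) had the highest median, 70.0 and 19.7 per kb, and 94.1% reached 10. The 230 genes with other symbols had 25.9 and 17.1 per kb, and the 30 microRNA hosts 30.1 and 15.1 per kb. The 570 LINC genes, with 13.2 and 10.4 per kb, and the 1730 genes with an identifier alone, with 11.6 and 10.0 per kb, lay near the median of all. The 234 antisense genes had 10.6 and 9.28 per kb, and the 19 divergent transcripts 5.94 and 9.24 per kb. Divergent transcripts are named for a start close to that of a coding gene, and the rule leaves out those within 2 kb of one. The 14 intronic or overlapping genes had 12.4 and 10.5 per kb. The class ranges overlapped, and genes that share a region are not independent.

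**Figure D4:**
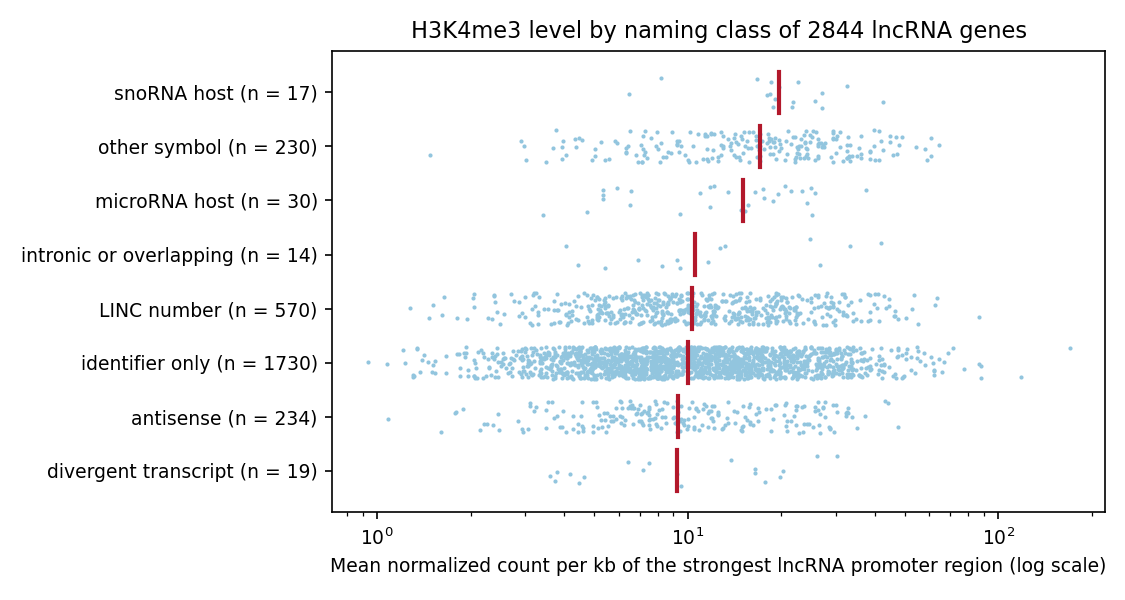
Mean normalized count per kb of the strongest region of each of 2844 lncRNA genes (horizontal axis, log scale), by class of symbol (rows). Points are genes and vertical bars are medians, from 19.7 for the 17 snoRNA hosts to 9.24 for the 19 divergent transcripts.

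The lists that follow are read against all autosomal lncRNA genes, of which 15.5% had a lncRNA promoter region, and 56.4% of the genes with a region reached 10 mean normalized counts. Among 12 nuclear or abundant lncRNAs, 9 had a lncRNA promoter region and 8 reached 10 mean normalized counts, with a median of 18.3 per kb. Beside MALAT1, NORAD at chr20:36047426-36052035 had 167.3 mean normalized counts and 36.3 per kb, LINC-PINT, which is induced by p53, 44.2 and 29.3 per kb, CRNDE 46.4 and 18.5 per kb, and DANCR 56.0 and 18.3 per kb. The sequence of the NORAD region occurs in about 2 copies, at the multi-copy limit but not over it, so its level is less certain. NEAT1, the scaffold of paraspeckles, was much lower per kb than its neighbour MALAT1, at 25.1 mean normalized counts and 9.22 per kb. MIAT had 17.5 and 11.2 per kb in a region that covered none of its gene body. KCNQ1OT1 had 46.6 and 10.8 per kb, and PVT1 was below 10, at 4.24. OIP5-AS1 (125.3 mean normalized counts) was left out as near a protein-coding start, CYTOR had no region, and TUG1 is annotated as protein-coding.

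The snoRNA hosts carry intronic snoRNAs, which guide the modification of ribosomal RNA, and many have TOP-like promoters typical of genes for ribosomal proteins. Of 31 such hosts, 18 had a lncRNA promoter region, 17 of them at 10 or more, and 12 were near a protein-coding start only. The 18 had a median of 70.2 mean normalized counts and 20.7 per kb. SNHG7 had 42.5 per kb, EPB41L4A-AS1 32.8, SNHG21 32.6, SNHG25 27.1, SNHG32 27.1 and SNHG16 25.6 per kb. SNHG8 had 100.3 mean normalized counts and 18.9 per kb in a wider region, chr4:118275932-118281251. SNHG14, at 8.19 per kb, and SNHG28, at 3.24 mean normalized counts, were the low members, although SNHG28 also has a start in a region of 91.3 near a protein-coding start. Among those left out were ZFAS1 (177.1) and GAS5 (126.9).

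Imprinted lncRNAs lay above the median of all genes in mean normalized counts (25.1 against 13.0) and below it per kb (8.87 against 10.5). Of 15 listed, 12 were annotated as autosomal lncRNA genes, 6 had a lncRNA promoter region and 5 reached 10 mean normalized counts. PEG13 had 59.2 mean normalized counts and 18.4 per kb, KCNQ1OT1, expressed from the paternal allele, 46.6 and 10.8 per kb, and SNHG14 25.5 and 8.19 per kb. MEG3, expressed from the maternal allele and known in human islets, had 24.8 mean normalized counts and 9.55 per kb at its strongest region, chr14:100825343-100827943, which holds the promoter sequence given above. H19, also maternally expressed, had 11.1 and 8.14 per kb, and MEG8 was below 10, at 8.73. The levels are sums over both alleles. HYMAI (127.0), GNAS-AS1 (96.1) and MESTIT1 (49.6) were left out as near a protein-coding start.

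Of 18 lncRNAs linked to p53 or senescence, 8 had a lncRNA promoter region and 6 reached 10 mean normalized counts, with a median of 14.2 per kb. They overlap the list of nuclear lncRNAs in MALAT1, NORAD, LINC-PINT, NEAT1 and PVT1. MIR31HG, host of miR-31, had 52.96 mean normalized counts and 18.8 per kb at chr9:21557852-21560674. CDKN2B-AS1, or ANRIL, which runs antisense through the locus of the cell cycle inhibitors CDKN2A and CDKN2B, was below 10 at its lncRNA promoter region (2.53), and its strongest start lay in a region of 197.4 near a protein-coding start. TP53TG1 (81.9), GAS5 (126.9), MIR22HG (26.6) and DINOL (12.1) were near a protein-coding start only. PANDAR, PURPL, MIR34AHG and HOTAIR had no region.

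Of 17 lncRNAs linked to islets or endocrine cells, 9 had a lncRNA promoter region and 5 of these reached 10 mean normalized counts, a share close to the 56.4% of all genes with a region. Their median was 24.8 mean normalized counts and 9.22 per kb, above the median of all genes in counts and below it per kb. RMST, known from neurogenesis, had 53.7 mean normalized counts and 39.8 per kb at chr12:97462662-97464011. MIR7-3HG, host of the islet microRNA miR-7, had 43.5 and 19.6 per kb at chr19:4768876-4771099, and MIR137HG 80.3 and 14.8 per kb. LINC00261, which lies beside the endoderm factor gene FOXA2, had 48.3 and 9.04 per kb, and a further start in a region of 223.0 near a protein-coding start. HNF4A-AS1 (8.44), LINC01116 (4.68) and MIR9-3HG (4.09) were below 10. Of the 17, 15 were annotated as autosomal lncRNA genes, 4 were near a protein-coding start only and 2 had no region. Among those 4, PLUT, antisense to PDX1, and ISL1-DT were left out because their regions, at 260.5 and 588.2, are those of PDX1 and ISL1. The others of the 4 were lower, at 27.6 and 25.2.

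None of 14 lncRNAs of other lineages and 2 of 13 of the HOX clusters had a lncRNA promoter region, where 15.5% of all lncRNA genes did, so these counts do not set the lists apart. Of the other lineages, FENDRR (2.73), PCA3 (3.43) and MYOSLID (122.1) had a region near a protein-coding start, and 11 had no region, among them HAND2-AS1, CARMN, MIR155HG and MIR122HG. In the HOX clusters, HAGLR and HAGLROS shared a region of 19.1 mean normalized counts and 9.22 per kb, HOXA-AS3 (1.54) and HOXB-AS3 (2.25) had a region near a protein-coding start, and 9 had no region, HOTAIR and HOTTIP included.

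**Figure D5:**
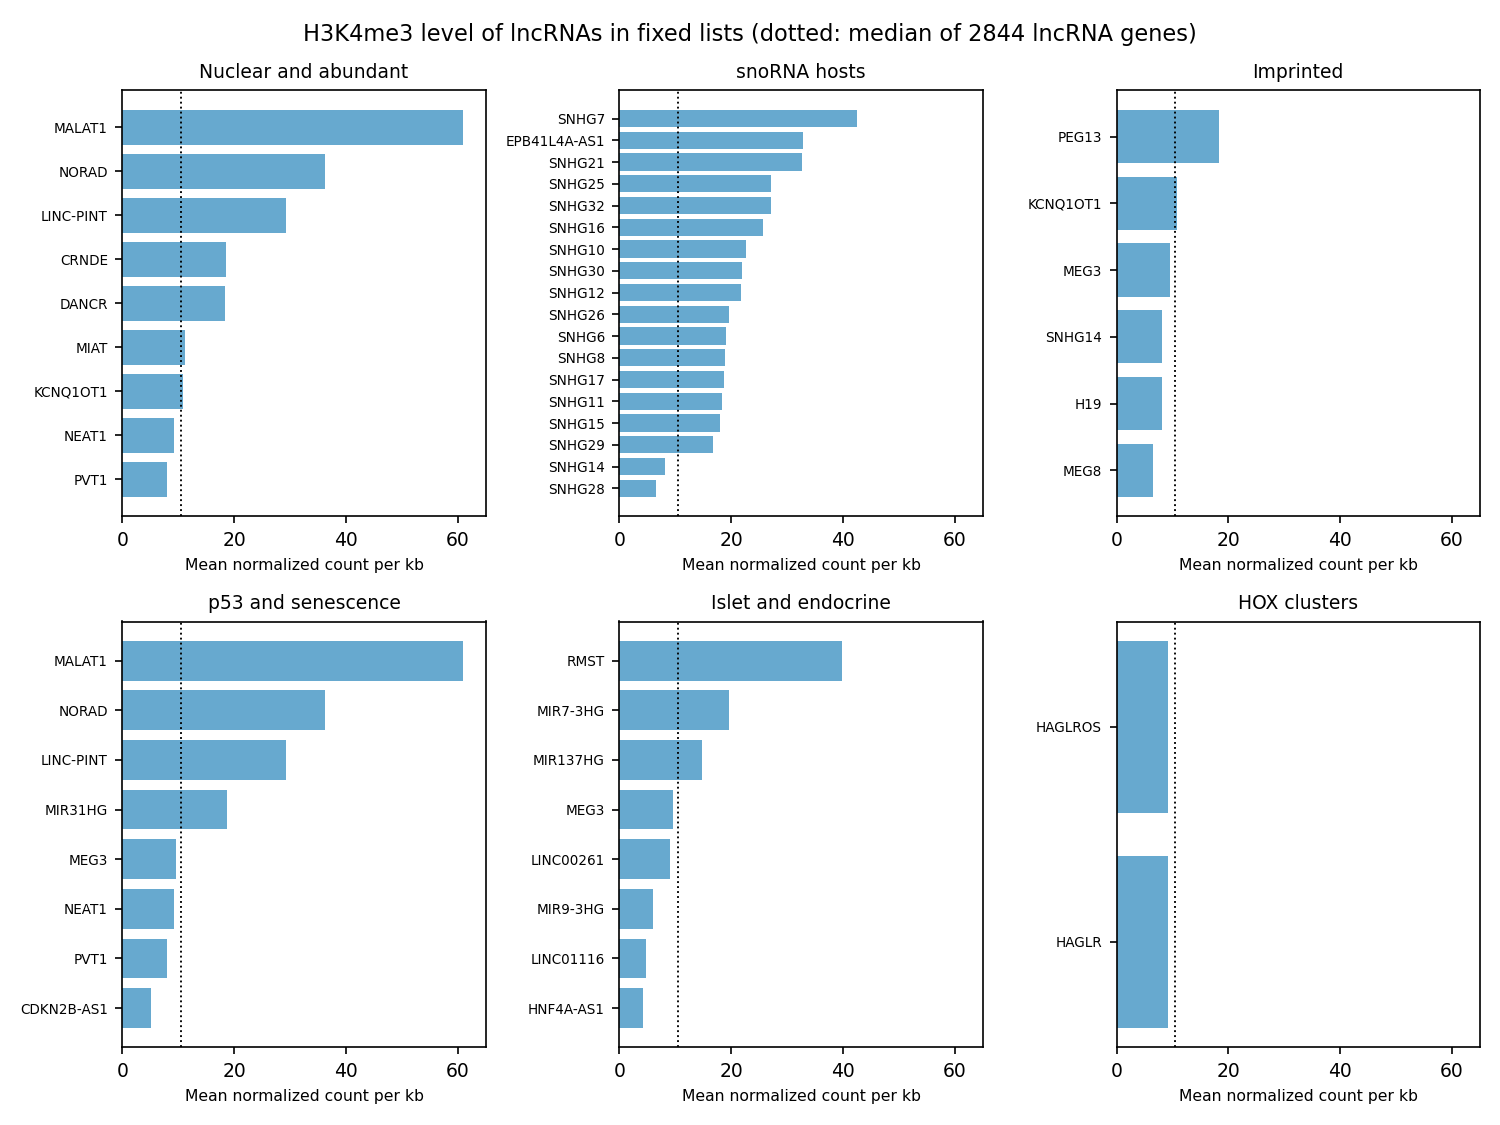
Mean normalized count per kb of the strongest lncRNA promoter region (horizontal axis) of the members of 6 lists of lncRNAs reported here, 1 panel for each list and 1 bar for each gene, with the median of all 2844 genes (10.5) dotted. In the snoRNA host panel, 16 of 18 bars pass the dotted line, while in the imprinted panel PEG13 and KCNQ1OT1 do.

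A few lncRNA promoter regions have a beta cell gene as their nearest protein-coding start. BETALINC1, a lncRNA studied in beta cells, had 24.9 mean normalized counts and 17.6 per kb at chr20:21529635-21531052, 15.6 kb from NKX2-2. An unnamed lncRNA, ENSG00000225570, had 22.4 and 18.3 per kb at chr2:181693749-181694970, 12.9 kb from NEUROD1. ENSG00000253622 had 49.8 and 14.3 per kb, 5.62 kb from the zinc transporter gene SLC30A8. LINC02118 had 44.6 and 11.9 per kb, 621.3 kb from ISL1. PAUPAR, beside PAX6, was below 10 at 6.18, and LINC01727, also nearest to NKX2-2, at 3.38.

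Of 79 microRNA hosts, 30 had a lncRNA promoter region, 22 of them at 10 or more mean normalized counts, with a median of 15.1 per kb. Another 10 were near a protein-coding start only, and 39 had no region. In 28 of the 30 hosts the gene body held annotated microRNAs, 102 mature sequences in all. In 25 of these 28, a host start at the strongest region lay upstream of all the microRNAs. It lay upstream of some of them in MIR99AHG and MIR493HG, and of none in MIR663AHG. MIR99AHG, at 71.8 mean normalized counts and 24.99 per kb, had its region 46.6 kb beyond let-7c, so this value is not at a start that precedes let-7c. Of the microRNAs that do follow a host start at the region, 9 are given from RefSeq (GRCh38.p14) to show which sequences lie behind these starts. Capitals mark the seed, bases 2 to 8, which pairs with target mRNAs. The first 3 share the let-7 seed GAGGUAG.
hsa-let-7i-5p (MIRLET7IHG): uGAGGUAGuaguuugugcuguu
hsa-let-7a-5p (MIR100HG, MIRLET7A1HG and MIRLET7BHG): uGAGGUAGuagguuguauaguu
hsa-miR-4458 (MIR4458HG): aGAGGUAGguguggaagaa
hsa-miR-9-5p (MIR9-1HG and MIR9-3HG): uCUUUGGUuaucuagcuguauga
hsa-miR-17-5p (MIR17HG): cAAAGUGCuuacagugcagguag
hsa-miR-217-5p (MIR217HG): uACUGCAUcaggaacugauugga
hsa-miR-7-5p (MIR7-3HG): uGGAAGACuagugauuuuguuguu
hsa-miR-31-5p (MIR31HG): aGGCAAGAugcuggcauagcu
hsa-miR-137-3p (MIR137HG): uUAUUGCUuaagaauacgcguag

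The let-7 seed, which represses growth and RNA-binding factors such as HMGA2 and LIN28, lay downstream of a start at the region in 5 hosts, all at 10 or more mean normalized counts. They ranged from 11.8 per kb at MIRLET7BHG to 23.4 at MIRLET7IHG, with MIRLET7A1HG at 13.5, MIR4458HG at 16.5 and MIR100HG at 17.5 per kb. The gap from region to let-7a was 7.09 kb in MIRLET7A1HG, 39.7 kb in MIRLET7BHG and 55.0 kb in MIR100HG, whereas let-7i lay inside the region of MIRLET7IHG. The miR-9 seed CUUUGGU was held by MIR9-1HG, the highest of all microRNA hosts at 98.5 mean normalized counts and 37.7 per kb, and by MIR9-3HG, below 10 at 4.09. MIR17HG, host of a microRNA cluster that favours proliferation, had 25.1 per kb, MIR217HG 24.2, MIR1915HG 20.6, MIR7-3HG 19.6, MIR31HG 18.8 and MIR137HG 14.8 per kb. MIR29B2CHG (9.40), MIR124-1HG (3.26) and MIR493HG (1.71) were below 10. The amounts of the microRNAs themselves were not measured.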

How the data were processed

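Per the labels and the study's methods, the authors digested chromatin of EndoC-βH3 cells with MNase, ligated sample barcodes, pooled the samples, precipitated with an H3K4me3 antibody (Abcam ab8580) and sequenced paired ends on a NextSeq 500. Alignment to hg38 was done by the authors with Bowtie2 and samtools, peak finding with HOMER, and the test between states with DESeq2. How peaks were merged, reads counted or duplicates treated, and the terms of the model, are not given in the sources used here.

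The deposited signal of a region is the authors' mean of normalized counts, which in DESeq2 is taken over all samples compared, here 8. It is a pooled value with no error, and the depth per sample is unknown. The table also holds the authors' own comparison (log2 fold changes, standard errors, test statistics, p-values and adjusted p-values). These were not used, so no test was run and senescent and non-senescent cells were not compared. The other 16 samples (H3K27me3, H3K9me3) were not used.

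Starts were the 5′ ends of all lncRNA and protein-coding transcripts of GENCODE release 44. Region coordinates are printed as deposited, and whether they count from 0 or 1 is not given. A gene took its region of highest level. GC content, CpG ratio and copy number (32-base stretches at up to 30 positions, counted in 194 sequences) came from hg38. RefSeq promoters (GRCh38.p14) were all identical to hg38. Named genes are the members of the fixed lists, the 15 lncRNAs of highest level, the 5 highest per kb, the 5 widest and the 3 nearest on each side of 10 mean normalized counts. Some genes that this rule takes in are not reported here. Names outside this rule (lncRNAs nearest a beta cell gene, those with most regions, lncRNAs known by an identifier) were chosen after their values were seen. The members and lists were chosen with earlier results of these data known. Alternatives changed the windows, the limit, the scale and the set of regions. Leaving out multi-copy regions was added after seeing the data. Overlap was tested on simulated data, where 600 of 600 regions were classified as made. The tools were samtools 1.23.1, pysam 0.24.0 and Python 3.11.15 with matplotlib 3.10.9, numba 0.67.0, statsmodels 0.14.6, scipy 1.17.1, pandas 2.3.3 and numpy 2.4.6.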

Additional observations from a re-analysis of the deposited data

How the results depend on the processing

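The number of lncRNA promoter regions ran from 2500 (start window 500 bp) to 4122 (2 kb), and their median level from 7.14 to 13.0 mean normalized counts. The share at 10 or more was 54.8% with a 500 bp window, 41.5% with 2 kb and 55.9% with the 5′ end of each gene only. It was 65.3% at a limit of 5, 31.8% at 20 and 44.5% at 10 per kb, and 47.7% without multi-copy regions. The median width was 1747 bp among regions at 10 or more. As a ratio to the median of all genes, the snoRNA host class was 5.39 in counts and 1.87 per kb, microRNA hosts 2.31 and 1.43, and divergent transcripts 0.457 and 0.878. LINC genes moved from 1.02 to 0.98 and intronic or overlapping genes from 0.95 to 1.00, where both sides are near 1. Of the lists, nuclear lncRNAs moved from 3.57 to 1.74, snoRNA hosts from 5.40 to 1.97 and the p53 list from 2.66 to 1.35. Imprinted (1.93 to 0.84), islet (1.91 to 0.88) and HOX lncRNAs (1.47 to 0.88) lay above the median in counts and below it per kb. Width still follows the count per kb (Spearman's rho 0.652 over the 3075 regions), so dividing by width does not remove it.

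No paired analysis was possible because the values are 1 mean over all samples, and for the same reason no sample was left out. Weak regions rest on few reads, and their depth is unknown.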
